A study of Mus musculus with 8 samples.

Results

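Surfactant is the film of lipid and protein that lowers surface tension in the alveolus. The genes of its production followed here were set by name: the surfactant proteins Sftpa1, Sftpb, Sftpc and Sftpd, the lamellar body genes Lamp3, Abca3 and Lpcat1, the processing protease Napsa, the phosphate transporter Slc34a2 and the transcription factor Etv5. All 10 were found by symbol among the 33027 genes of the deposited table, and each passed the filter on rarely detected genes in alveolar epithelial type II (AT2) cells.

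AT2 cells make surfactant, store it in lamellar bodies and release it into the airspace, and they are also progenitors of alveolar type I (AT1) cells. Sftpb and Sftpc encode small hydrophobic proteins that spread the lipid film and are cut from longer precursors, partly by napsin A, the product of Napsa. Sftpa1 and Sftpd encode collectins, which bind microbes and lipid and are also made by secretory cells of the airway. Abca3 pumps phospholipid into the lamellar body, Lpcat1 remodels phosphatidylcholine, and Lamp3 is a membrane protein of the same organelle. Slc34a2 takes up phosphate from the airspace. Etv5 is an ETS-family factor that maintains the AT2 state downstream of fibroblast growth factor signalling.

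Lung cells came from 8 Sftpc-CreERT2-mTmG mice on C57BL/6, 4 exposed to cigarette smoke (CS) and 4 kept in room air (RA). All of them carried the reporter, in which Cre driven by Sftpc switches cells from tdTomato to eGFP after tamoxifen, given at 8 to 10 weeks of age. Exposure began 2 weeks later and lasted 10 months. Cells were separated on CD45 and mixed again at 10% CD45+ and 90% CD45- cells, so shares of cells do not give shares of the lung. Mice are called here CS 1 to CS 4 and RA 1 to RA 4.

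The mice gave 3317 to 6153 cells (CS) and 2553 to 6371 cells (RA), with 33145096 to 48490570 and 31094695 to 52753531 transcripts. There were 116 to 228 AT2 cells per CS mouse and 71 to 559 per RA mouse. Of the 40074 cells used, 380 (0.948%) shared a barcode with a cell of another library. In the CS libraries the sex-linked genes went against the labels. CS 1 and CS 2, labelled male, had Xist at 7.83 and 8.34 transcripts per 10,000 and Ddx3y near 0, whereas CS 3 and CS 4, labelled female, had Ddx3y at 0.925 and 1.08 and Xist near 0. The RA libraries matched their labels. No comparison here is between sexes.

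All levels are transcripts (unique molecular identifiers, UMIs) per 10,000 transcripts of the cell, averaged over the cells of a mouse, and are given as mean ± SD over mice. Each transcript counts once, so levels were not divided by gene length.

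The 10 genes lie on 7 chromosomes in the GRCm38 build. Sftpa1 (chr14:41131782-41136452, + strand) and Sftpd (chr14:41172214-41185149, - strand) lie on the same chromosome, and Sftpb lies at chr6:72304610-72314371 on the + strand. Abca3, Slc34a2 and Napsa overlap annotated genes on the opposite strand, and whether counting used the strand is not given in the sources used here. RefSeq promoter entries were at hand for 7 of the 10 genes, all but Sftpc, Sftpd and Napsa. The bases upstream of 4 of them are shown with motifs in capitals, because these genes stand for the collectins, the hydrophobic proteins and the lamellar body, and because Sftpa1 and Sftpb were also found in airway cells. CTCAAG, the core bound by NKX2-1, occurred in the 250 bases upstream of Sftpa1 and Sftpb, on the strand of the gene. TGTTTAC, a forkhead motif, occurred upstream of Lamp3 and Etv5, and CCGGAA, an ETS motif, upstream of Abca3. TTGCNNAA, a C/EBP motif, occurred upstream of Slc34a2 only. Upstream is counted from the RefSeq start. That start lay inside the gene as annotated by GENCODE in 6 of the 7 genes, all but Sftpb, by 6 to 149 bases or, at the second start of Etv5 and at Slc34a2, by 1351 and 11272 bases. Of the 2 starts of Etv5, 1 had the forkhead motif. None of the 4 motifs was found upstream of Lpcat1.
Sftpa1, chr14:41131538-41131781, + strand: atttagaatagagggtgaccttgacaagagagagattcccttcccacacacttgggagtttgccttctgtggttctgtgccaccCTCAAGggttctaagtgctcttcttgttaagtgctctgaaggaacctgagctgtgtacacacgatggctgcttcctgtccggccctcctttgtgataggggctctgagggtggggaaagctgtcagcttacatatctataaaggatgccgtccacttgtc
Sftpb, chr6:72304360-72304609, + strand: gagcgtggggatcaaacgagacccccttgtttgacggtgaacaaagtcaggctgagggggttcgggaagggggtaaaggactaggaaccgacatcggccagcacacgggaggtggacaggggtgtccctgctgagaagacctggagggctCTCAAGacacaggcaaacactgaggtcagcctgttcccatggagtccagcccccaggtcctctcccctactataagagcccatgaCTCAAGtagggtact
Lamp3, chr16:19706376-19706615, - strand: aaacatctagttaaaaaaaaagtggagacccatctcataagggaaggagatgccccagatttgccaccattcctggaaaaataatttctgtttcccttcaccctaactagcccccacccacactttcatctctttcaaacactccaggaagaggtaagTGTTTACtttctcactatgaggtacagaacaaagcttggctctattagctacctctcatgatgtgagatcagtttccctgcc
Abca3, chr17:24351773-24351920, + strand: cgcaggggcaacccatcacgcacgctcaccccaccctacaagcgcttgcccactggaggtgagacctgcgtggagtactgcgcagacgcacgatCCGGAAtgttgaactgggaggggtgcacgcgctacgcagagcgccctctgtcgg

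Searched on both strands, the same motifs occurred in 13.3% (CTCAAG), 3.17% (TGTTTAC), 9.56% (TTGCNNAA) and 12% (CCGGAA) of the 32851 promoters of the same length. The Sftpb stretch held CTCAAG at 2 places. The stretches shown end before the first base that either annotation puts in the gene, which leaves 148 bases for Abca3. Counted over the full window, the 250 bases upstream of Lamp3 held 0 CpG dinucleotides, those of Sftpa1 3, those of Sftpb 7 and those of Abca3 21, against a median of 6 over all promoters. A match describes the letters alone.

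Across the 27 cell types with at least 20 cells in 2 or more mice, each of the 10 genes was highest in AT2 cells. Since the authors named the cell types from marker genes, differences between types are a description. The AT2 mean was 1180 for Sftpc, 247 for Sftpa1, 109 for Sftpb, 54.2 for Slc34a2, 47.6 for Sftpd, 25.3 for Napsa, 13.9 for Lamp3, 11.8 for Lpcat1, 7.36 for Abca3 and 5.45 for Etv5. The next highest type differed by gene. By mean level, it was club cells for Sftpc, Sftpa1, Sftpb, Sftpd, Slc34a2 and Abca3. Over mice, club cells overlapped the type ranked after them for Sftpc, Sftpa1, Slc34a2 and Abca3, but not for Sftpb and Sftpd. Club Sftpc ran from 0.3983 to 18.87 over mice and rested on few cells, since the median club cell was at 0 in every mouse. The next highest type was AT1 cells for Lpcat1, at 1.66 ± 0.475, and type 2 dendritic cells for Napsa, at 7.63 ± 0.273 in 2 mice. For Lamp3 and Etv5 no type other than AT2 passed 0.4.

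**Figure D1:**
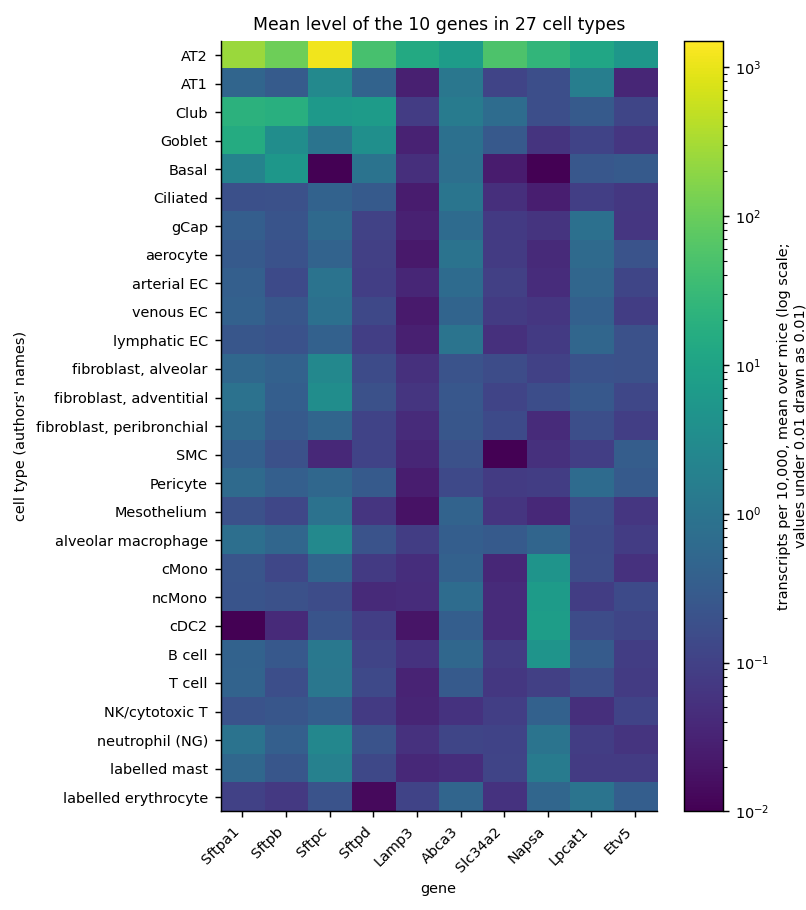
Mean level of each of the 10 genes (columns) in 27 cell types (rows), in transcripts per 10,000 averaged over mice, coloured on a log scale. The AT2 row is the brightest in every column; Sftpa1, Sftpb and Sftpd stand out in club and goblet cells, and Napsa in monocytes, dendritic cells and B cells.

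The genes fell into those held almost wholly by AT2 cells and those shared with other cells. By summed transcripts, AT2 cells held 97.1% to 99.0% of Sftpc per mouse, 93.5% to 97.9% of Lamp3 and 93.2% to 98.2% of Slc34a2. They held a median of 75.7% of Napsa, 74.6% of Sftpa1, 71.8% of Etv5, 63.5% of Sftpb, 63.3% of Sftpd, 62.3% of Lpcat1 and 30.9% of Abca3. Club cells held a median of 29.7% of Sftpb, 25% of Sftpd and 18.7% of Sftpa1. Abca3 was the most widely spread, with a median of 17.6% in ciliated cells and 15.1% in club cells. These shares move with the number of AT2 and other cells in a library and with their depth. Per mouse, the median depth was 27543 to 51739 transcripts in club cells and 9434 to 15384 in AT2 cells.

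Within AT2 cells the 10 genes made up 14.8% to 18.1% of all transcripts in CS mice and 16.5% to 17.9% in RA mice. Sftpc alone was 65.4% to 72.0% of that. A value above 0 of each gene was found in 95.6% (Etv5) to 99.7% (Sftpb) of the 1881 AT2 cells. Since the authors named the cell types from marker genes, these shares are no check of the label. From cell to cell, Sftpc varied by a median coefficient of variation of 34.1% and Sftpb by 34.6%. The less abundant Abca3 varied by 57.0% and Etv5 by 65.5%, a spread that includes counting error. Between mice, it was 7.84% (Lpcat1) to 18.0% (Etv5).

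Within single mice, the collectins moved together from cell to cell. Sftpa1 and Sftpd had the highest rank correlation over AT2 cells of the 45 pairs, with a median rho of 0.494 over 8 mice (0.435 to 0.617). Sftpb and Sftpc followed at 0.448 and Sftpb and Napsa at 0.433. The lowest median was -0.0226, for Sftpd and Abca3. All 10 genes of a cell share 1 total, which also sets these correlations. Counting error lowers rho for the less abundant genes, among them Abca3 and Etv5, so the pairs are not ranked on equal terms.

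Smoke exposure was then compared with room air in AT2 cells. None of the 10 genes passed the test in AT2 cells, and for none did the 4 CS mice lie wholly above or below the 4 RA mice. Over all 9032 genes tested with limma and Benjamini-Hochberg adjustment, 0 passed an adjusted P of 0.05, or 0% (671 had an unadjusted P under 0.05), and in 4.57% the CS and RA mice did not overlap. Of the 10, 4 had a higher mean and 6 a lower mean in CS, with a median log2 difference of -0.051 against 0.00356 over all genes tested.

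Among the hydrophobic proteins, Sftpb was 109, 99.3, 100 and 102 in CS 1 to CS 4 and 119, 119, 108 and 119 in RA 1 to RA 4. The CS mice were lower in 4 of 4 sequencing lanes, each of which held 1 CS and 1 RA mouse, but CS 1 lay above RA 3. The log2 difference was -0.18 (SE 0.071, adjusted P = 0.649). Sftpc was 1088, 1291, 1267 and 987 in CS mice and 1165, 1228, 1269 and 1145 in RA mice, with CS 2 above and CS 1 and CS 4 below every RA mouse (log2 difference -0.06, SE 0.072, adjusted P = 0.880).

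The collectin Sftpa1 was 196, 242, 236 and 230 in CS mice and 328, 260, 254 and 227 in RA mice. RA 1 was the highest and CS 1 the lowest, and CS was higher in 1 of 4 lanes (log2 difference -0.23, SE 0.102, adjusted P = 0.669). The difference was -0.13 without RA 1 and ran from -0.31 to -0.13 as each mouse was left out. Sftpd was 46.7 ± 2.73 in CS and 48.6 ± 7.59 in RA.

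Of the lamellar body genes, Lamp3 was 15.5, 14.8, 13.8 and 14.5 in CS mice and 11.5, 13.8, 14.2 and 13.2 in RA mice, with CS higher in 4 of 4 lanes (log2 difference 0.14, SE 0.109, adjusted P = 0.799, 0.0862 to 0.178 as each mouse was left out and lowest without RA 1). Abca3 was 7.56 ± 0.393 in CS and 7.16 ± 1.19 in RA, and Lpcat1 11.5 ± 0.941 and 12.03 ± 0.966. Slc34a2 was 56.4 ± 6.56 and 52.0 ± 3.13, and Napsa 24.4 ± 1.90 and 26.1 ± 1.94. For these 4 genes the groups overlapped.

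Etv5 had the largest difference upward. It was 6.36, 6.88, 5.35 and 5.74 in CS mice and 3.56, 5.33, 4.99 and 5.41 in RA mice, higher with CS in 4 of 4 lanes, with RA 4 just above CS 3 (log2 difference 0.29, SE 0.128, adjusted P = 0.669). The difference was 0.18 without RA 1 and ran from 0.18 to 0.34 as each mouse was left out. In exact two-sided permutation tests over the 8 mice, which can give no P under 0.0286, Sftpb, Lamp3 and Etv5 in AT2 cells each gave 0.0571 and Sftpa1 gave 0.114.

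**Figure D2:**
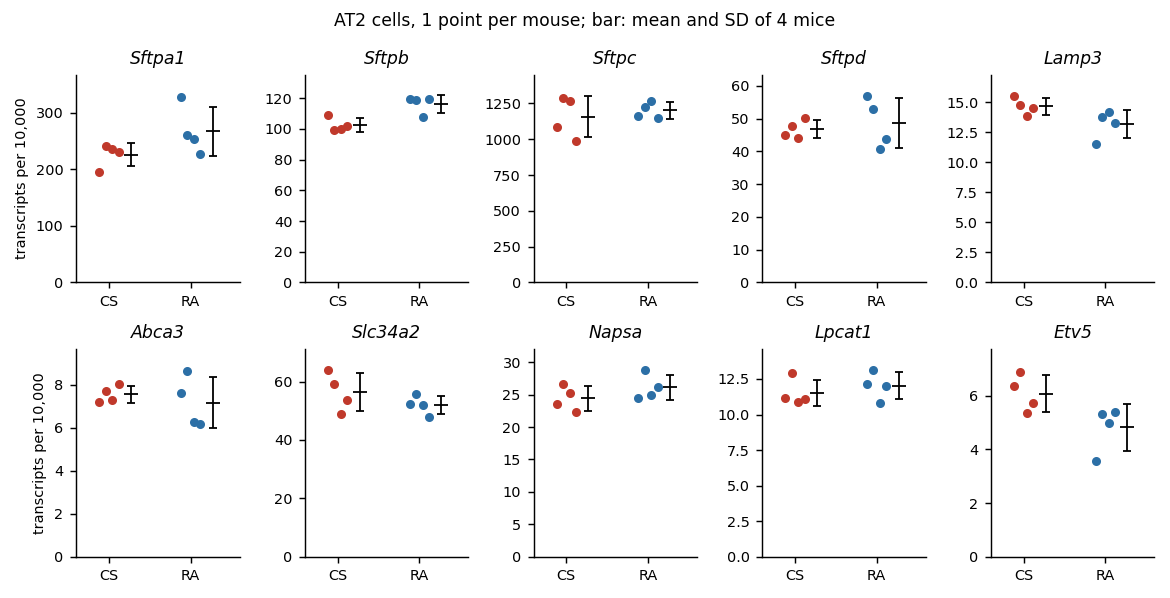
Level of each of the 10 genes in AT2 cells, in transcripts per 10,000 from 0, with 1 point per mouse (red, CS; blue, RA) and the mean and SD of 4 mice beside them. In every panel at least 1 CS mouse lies within the range of the RA mice or the reverse.

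Markers of other cells in AT2 cells did not separate the groups. The summed level of 5 club markers was 34.6 to 76.6 in CS and 43.3 to 97.0 in RA, that of 6 AT1 markers 11.7 to 14.5 and 13.7 to 18.4, and that of 5 endothelial markers 2.39 to 5.07 and 1.86 to 6.87. Without the AT2 cells that held 2 or more endothelial transcripts, the log2 difference of Sftpb was -0.23 and that of Etv5 0.28.

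The genes that make, package and control surfactant were looked at next in AT2 cells. Of 22 genes of surfactant lipid synthesis, 21 passed the filter and 0 passed the test in either direction, with a median log2 difference of 0.0142. Those with the smallest P were Plin2, a lipid droplet coat protein (1.17 ± 0.231 in CS and 1.69 ± 0.477 in RA, adjusted P = 0.649), Srebf1, the regulator of fatty acid synthesis (0.8289 ± 0.0381 and 1.01 ± 0.115, with no overlap, adjusted P = 0.649), Scd1, which desaturates fatty acids (32.5 ± 5.73 and 41.3 ± 8.10), and Acsl4 (4.70 ± 0.701 and 3.95 ± 0.357). Of 18 genes of precursor processing and lamellar body traffic found in the files, 0 passed the test, with a median of 0.00951. Anxa7 (1.06 ± 0.0508 and 0.847 ± 0.0961), with no overlap, had the smallest P of this list. Ctsh, the cathepsin that also cuts the Sftpb precursor, was 7.61 ± 0.437 in CS and 12.4 ± 6.01 in RA, where single mice ranged from 8.07 to 21.2. Ap3b1, a subunit of the AP-3 sorting adaptor, was 0.894 ± 0.132 and 1.07 ± 0.108, and Atp11a, a phospholipid flippase, 4.75 ± 0.412 and 4.23 ± 0.657, both with overlap.

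Of 14 transcription factors and receptors of AT2 cells, 13 passed the filter and 0 passed the test, with a median of 0.0185. Erbb3, a receptor, was 0.585 ± 0.0738 in CS and 0.461 ± 0.0578 in RA, and Foxa2, a forkhead factor, 1.05 ± 0.169 and 0.855 ± 0.0767. Fgfr2, the receptor upstream of Etv5, was 6.36 ± 0.796 and 5.25 ± 0.802, and Nkx2-1, the factor that drives surfactant genes, 3.39 ± 0.426 and 2.84 ± 0.486. The groups overlapped for all 4. Of 16 other genes known from AT2 cells, 0 passed the test. They included S100g, a calcium-binding protein (18.4 ± 0.709 and 15.2 ± 2.25), Lyz2, lysozyme (289.9 ± 16.1 and 322 ± 42.0), and Muc1, a membrane mucin (6.199 ± 0.718 and 5.53 ± 0.106), all with overlap. For Dram1, a lysosomal membrane protein, the CS mice lay above the RA mice (10.03 ± 0.443 and 8.87 ± 0.934, adjusted P = 0.766).

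Club cells, the secretory cells of the small airway, carried both collectins and Sftpb. In these cells Sftpb was 18.3 ± 1.67 over 8 mice, Sftpa1 21.2 and Sftpd 6.96. After each cell was thinned to 2000 transcripts, 88.8% of club cells still held Sftpb, against 4.18% of B cells, which should lack it; the median depths before thinning were 32800 and 4050 transcripts and the unthinned shares 96.6% and 6.86%. Unthinned shares count cells with at least 0.5 of a transcript, since free RNA had been subtracted. By that count 6.70% of club cells held Sftpc.

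Smoke did not separate these genes in club cells. Of 9 members that passed the filter there, 0 passed the test, against 0.199% of the 11575 genes tested (23), and 0 of 9 had groups without overlap, against 6.56%. Sftpb was 19.1, 21.0, 17.4 and 18.0 in CS mice and 20.3, 17.3, 17.5 and 16.1 in RA mice (log2 difference 0.08, SE 0.151, adjusted P = 0.879). That difference was 0.03 without CS 2, 0.04 without RA 4 and 0.14 without RA 1. Sftpa1 was 19.6 ± 3.83 and 22.7 ± 2.39, lower with CS in 4 of 4 lanes and with CS 4 above RA 1 (log2 difference -0.22, adjusted P = 0.696, and -0.08 without CS 3). Sftpd was 7.07 ± 1.01 and 6.86 ± 1.02. The 5 goblet markers summed to 1.23 to 2.55 in the club cells of CS mice and 3.59 to 7.03 in those of RA mice, without overlap, and their part in the club values was not tested.

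Goblet cells, the mucus-secreting cells, showed a difference in Sftpb. It was 4.91, 4.83, 4.51 and 4.30 in CS mice and 1.54, 2.75, 2.45 and 1.70 in RA mice. All 4 CS mice lay above all 4 RA mice, with means 2.20-fold apart (log2 difference 0.88, SE 0.173). In exact two-sided permutation this gave P = 0.0286, the smallest possible. The limma adjusted P over all 11842 genes was 0.0628, so Sftpb did not pass the test, which 0.177% of the genes did. All CS mice lay above all RA mice for 7.24% of all genes in goblet cells, and the groups did not overlap for 8.51%. Over 16 other settings the adjusted P ran from 0.0167 to 0.305 and passed in 5. It passed without RA 1 (0.0381) and without RA 2 (0.0485), and was 0.159 with the lane as a block.

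The higher level came with more goblet cells that held at least 0.5 of a transcript of Sftpb: 63.4% to 78.3% of cells in CS mice and 55.0% to 60.0% in RA mice, with median depths of 31209 to 40617 and 25921 to 64068 transcripts. The level in the median cell was 1.46 to 2.50 in CS and 0.282 to 0.712 in RA. The other 7 members that passed the filter in goblet cells overlapped. Sftpa1 was 3.03, 16.9, 16.7 and 11.3 in CS mice and 19.5, 16.8, 19.0 and 17.1 in RA mice, where CS 1, with 23 goblet cells, was far below the rest (log2 difference -0.77, adjusted P = 0.434, and -0.28 without CS 1). Sftpd was 3.69 ± 0.657 and 4.02 ± 0.987.

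Markers of other cells were followed in the same goblet cells. Sftpc was at 0 in CS 1, CS 4 and RA 4. The 5 club markers summed to 3825 to 4457 in CS and 3880 to 5574 in RA, but this list does not set club apart from goblet cells. Scgb3a1 and Scgb3a2 were higher in goblet cells (567 and 246) than in club cells (18.3 and 89.6), Cyp2f2 was highest in basal cells, and Scgb1a1, the club secretoglobin, was nearly as high in goblet as in club cells. The 5 goblet markers summed to 59.6 to 108 in CS and 104 to 145 in RA, and the 4 basal markers to 0.871 to 3.13 and 0.0335 to 1.31, each with some overlap. The part of these in the Sftpb result was not tested.

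Basal cells, the progenitors of the airway epithelium, numbered 15 to 37 per CS mouse and 10 to 36 per RA mouse, too few for the fit across genes. Sftpb in basal cells was 5.30, 6.91, 7.42 and 4.85 in CS mice and 2.66, 2.85, 2.51 and 0.980 in RA mice, with no overlap (exact two-sided permutation P = 0.0286). Of 10003 genes found in at least 10% of basal cells of either group, the groups did not overlap in 5.53%, and CS was above in 2.95%. Only CS 2, CS 3, CS 4 and RA 3 had at least 20 basal cells, so the permutation P and these shares include mice below the minimum kept elsewhere. Sftpc was 0.00837 ± 0.0167 and 0.0255 ± 0.0510, at 0 in most of these mice. The other 9 members overlapped in basal cells. In these cells the 4 basal markers summed to 19.3 to 26.2 in CS and 13.3 to 35.1 in RA. The 5 fibroblast markers summed to 12.5 to 19.6 and 10.9 to 21.8, and the 5 club markers to 71.3 to 251 and 61.1 to 246, all with overlap. Their part in the Sftpb values was not tested.

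**Figure D3:**
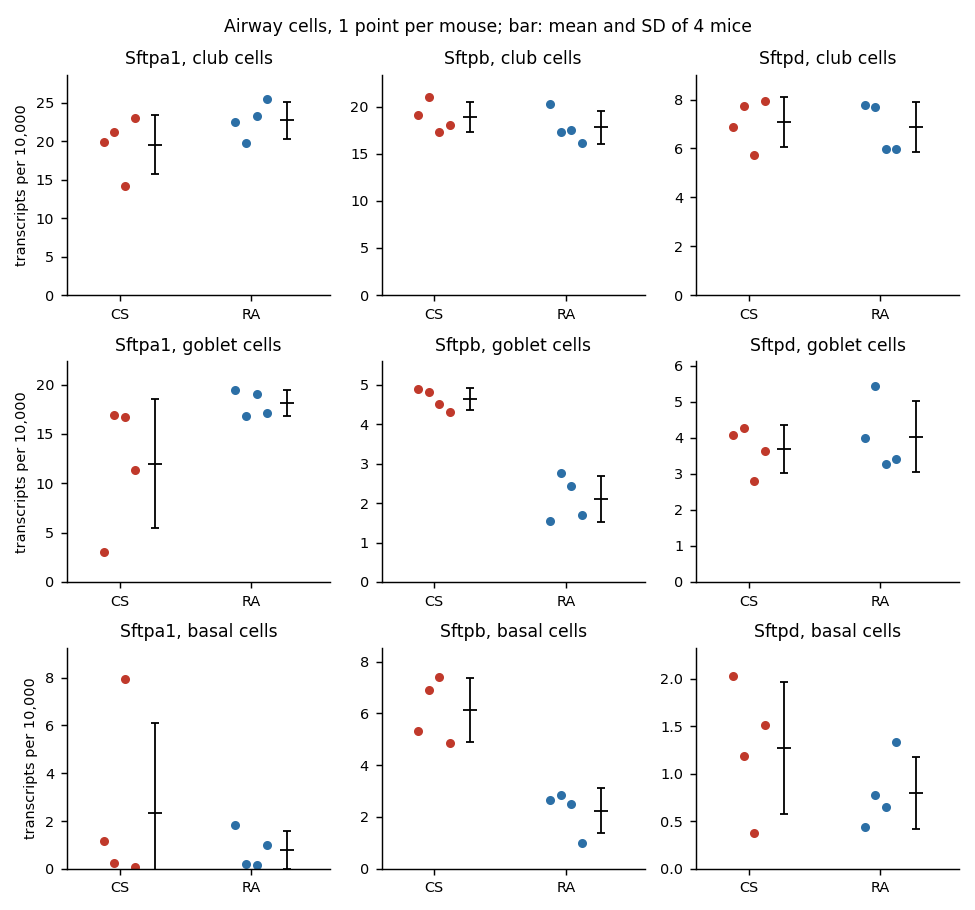
Level of Sftpa1, Sftpb and Sftpd in club, goblet and basal cells, in transcripts per 10,000 from 0, with 1 point per mouse (red, CS; blue, RA) and the mean and SD of 4 mice, an SD bar that would pass below 0 being cut there. Sftpb in goblet cells was 4.30 to 4.91 in CS and 1.54 to 2.75 in RA, and only the Sftpb panels of goblet and basal cells show groups without overlap.

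The smoke difference in Sftpb was also compared between cell types in the same mice. The AT2 minus club difference, the comparison laid down for this purpose, was lower in CS by 0.26 on the log2 scale (SE 0.084, adjusted P = 0.739), and 0.0116% of 8639 genes passed, while in 3.41% the groups did not overlap. The AT2 minus goblet difference was added after the goblet values had been seen. Sftpb in AT2 exceeded goblet by 4.20 ± 0.0713 log2 units in CS and by 5.25 ± 0.309 in RA, a difference of -1.06 (SE 0.133, adjusted P = 0.0410 in limma without a variance trend). Of 8653 genes, 0.0578% passed (5), and in 4.91% the groups did not overlap. The adjusted P depended on the variance trend. It was 0.0369 with a trend over the mean level and 0.414 with a trend over the mean difference, both of which had been run before the fit without a trend was chosen. It was also above 0.05 when any 1 mouse other than RA 1 was left out, at 0.0647 to 0.227. Goblet minus club gave 0.79 (SE 0.151, adjusted P = 0.463), and the groups did not overlap in 3.73% of 11139 genes, of which 0% passed. The goblet markers in club cells, lower in all CS mice, belong to both comparisons with club cells.

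Few pairs passed elsewhere. Over 22 cell types, 103 gene and type pairs could be tested, of which 1 passed (1.23% of all 172251 gene and type pairs did), 15 had an unadjusted P under 0.05 (15.2% of all pairs did) and 11 did not overlap (10.7% of all pairs). Of these, CS was above in 10 (5.99% of all pairs) and below in 1 (4.67%). One of them was Etv5 in adventitial fibroblasts, at 0.145 ± 0.0138 in CS and 0.107 ± 0.00654 in RA (limma adjusted P = 0.295). In that type 3.1% of 9406 genes passed and 14.1% did not overlap. Neighbouring types share the same 8 mice.

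The pair that passed was Lpcat1 in general capillary (gCap) endothelial cells. It was 0.938, 0.897, 0.885 and 0.991 in CS mice and 0.592, 0.718, 0.777 and 0.787 in RA mice, with all CS mice higher (log2 difference 0.17, SE 0.047, adjusted P = 0.0497). In gCap cells 10.3% of 6556 genes passed (672, and 0 with the lane as a block) and 24.5% did not overlap. The pass held in 3 of 16 other settings and was lost with the lane as a block (adjusted P = 0.0840) and when any 1 mouse was left out (0.0524 to 0.132). Abca3 in gCap cells was 0.751 ± 0.0967 and 0.514 ± 0.120, without overlap (adjusted P = 0.0550). It passed in 3 of 16 other settings (0.0387 to 0.196), among them without RA 3 (0.0458).

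In AT1 cells, the thin gas-exchange cells, Lpcat1 was 2.15, 2.14, 1.90 and 1.87 in CS mice and 0.745, 1.58, 1.26 and 1.63 in RA mice. The CS mice were all higher (log2 difference 0.41, SE 0.110, adjusted P = 0.0626). Over 16 other settings the adjusted P ran from 0.0441 to 0.314 and passed in 2, without RA 4 and with genes in 25% of cells. Abca3 was 1.30 ± 0.0822 and 1.01 ± 0.0964, again without overlap (adjusted P = 0.128). In AT1 cells 2.38% of 8873 genes passed and 10.9% did not overlap. The 6 AT1 markers summed to 278 to 326 in CS and 327 to 362 in RA, also without overlap, and their part in these values was not tested. Of the transcription factor and receptor list, 1 of 11 tested genes passed upward in AT1 cells.

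In ciliated cells Abca3 was 1.26, 1.09, 1.25 and 1.22 in CS mice and 0.633, 0.883, 0.997 and 0.986 in RA mice, all CS mice being higher (log2 difference 0.24, SE 0.063, adjusted P = 0.0593). Sftpd was 0.384 ± 0.162 and 0.188 ± 0.0351, without overlap (log2 difference 0.21, adjusted P = 0.0862, and 0.14 without CS 4). Etv5 in ciliated cells (log2 difference 0.03, adjusted P = 0.403) passed without RA 3 (0.06, adjusted P = 0.0466). In this type 4.63% of 11077 genes passed (513, and 163 with the lane as a block) and 15.9% did not overlap. After thinning, a transcript of Abca3 was found in 21.6% of AT1 and 19.0% of ciliated cells, against 10.2% of B cells, and of Lpcat1 in 26.6% of AT1 and 14.7% of gCap cells, against 5.40% of B cells. Unthinned, these were 65.7%, 76.4% and 22.5% for Abca3 and 71.0%, 27.6% and 12.7% for Lpcat1. B cells need not be a blank for these genes. They held Abca3 at 0.530 and Lpcat1 at 0.300, against 0.0586 and 0.0495 in NK and cytotoxic T cells.

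**Figure D4:**
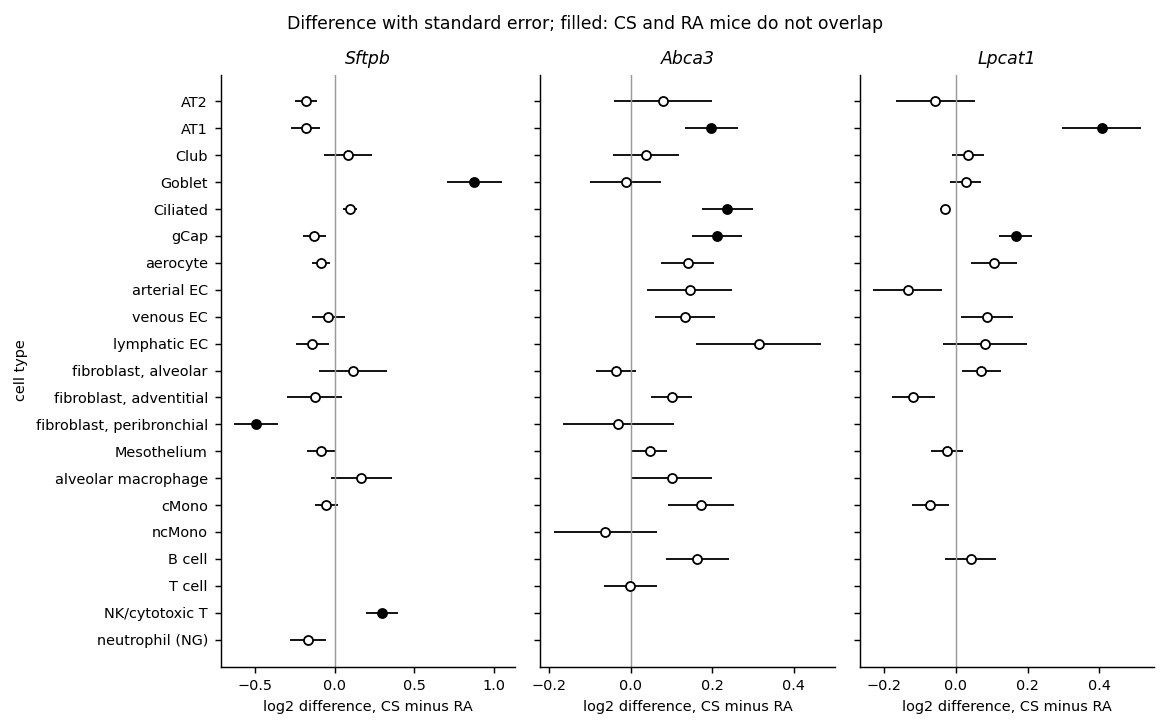
Log2 difference, CS minus RA, of Sftpb, Abca3 and Lpcat1 in each cell type where the gene passed the filter, with its standard error; filled points mark types in which the CS and RA mice do not overlap. Sftpb in goblet cells, at 0.88, is the farthest from 0, and each panel has its own axis range.

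Outside the epithelium, the same genes served to describe RNA of other cells left after free RNA was removed, since Sftpc is known as a product of AT2 cells. In non-epithelial cells Sftpc was 0.355 to 2.02 per mouse, and 2.31% to 9.50% of those cells had a value above 0. Most of that level sat in few cells: 2 to 16 cells per mouse, those above 100 transcripts per 10,000, carried 50.9% to 89.7% of it. Without them it was 0.0638 to 0.994. RA 1 gave the highest of these values (2.02, 9.50% and 0.994), and RA 2 the next (1.18, 5.02% and 0.387). RA 1 was also the RA mouse with the highest Sftpa1 and the lowest Lamp3 and Etv5 in AT2 cells. It was the lowest for Abca3 and Lpcat1 in gCap and AT1 cells, for Abca3 in ciliated cells and for Sftpb in goblet cells. The part of its background in these differences was not tested. In alveolar macrophages of CS 3, the mean of 16.7 came to 99.1% from 1 cell.

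In B cells Sftpa1 was 0.581 ± 0.104 in CS and 0.272 ± 0.0609 in RA, without overlap (adjusted P = 0.264). Of 6244 genes tested there, 0% passed (827 had an unadjusted P under 0.05) and 8.1% did not overlap. Sftpc, which did not pass the filter, was 1.93 ± 0.642 and 0.403 ± 0.316, also without overlap. These levels rested on few cells. Of the B cell Sftpc, 1 cell carried 97.1% in CS 1, 83.9% in CS 2 and 99.3% in CS 4, and CS 3 had 4 cells above 100 per 10,000, whereas the RA mice had 0 such cells. RA 3 had 1 cell just under this cut, at 99.1, which carried 44.4% of its Sftpc and was kept throughout. Of the B cell Sftpa1, the highest cell carried 46.5% to 69.6% in CS mice and 11.8% to 31.0% in RA mice. Without the cells above 100, which were picked by Sftpc and lay only in CS mice, Sftpa1 was 0.271, 0.172, 0.228 and 0.267 in CS 1 to CS 4 and 0.197 to 0.346 in RA mice, and Sftpc 0.0659, 0.305, 0.226 and 0.00708 against 0.0978 to 0.836. The CS mean of neither gene was then the higher. These values are a description, with no test. The 6 AT1 markers in B cells summed to 0.763 to 0.942 in CS and 0.435 to 0.678 in RA, without overlap, and their part was not tested. A list of 4 mature dendritic markers also did not overlap, with 3.58 to 5.07 and 6.55 to 7.77, but its Ccr7 was highest in B cells themselves (5.56), so the list does not mark other cells there.

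In peribronchial fibroblasts, with the 3 mice a group that had 20 cells, Sftpb was 0.0663 ± 0.0643 and 0.514 ± 0.263 (adjusted P = 0.386, and 0.1 by exact permutation, the smallest that 3 against 3 allow). Sftpc was 0.00713 ± 0.0124 and 0.951 ± 1.28. Of these mice, those of CS were lower for both genes. CS 1, with 13 cells, was not, at 0.315 for Sftpb and 0.530 for Sftpc, and RA 4, with 9 cells, was at 0 and 0.109. Of 7189 genes tested, 0% passed (604 had an unadjusted P under 0.05) and 14.7% did not overlap. Of the Sftpc of RA 1, at 2.43, 79.1% came from 1 cell, and the 0.213 of RA 2 and 0.211 of RA 3 came from 1 cell each.

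In NK and cytotoxic T cells the mean of Sftpb over 4 CS mice was 0.359 ± 0.172, and over 3 RA mice 0.0991 ± 0.0564 (adjusted P = 0.359). RA 1, with 19 cells 1 short of the minimum, was at 2.95, above every CS mouse, and the direction rests on leaving it out. In RA 1, 91.0% of that came from 1 cell, and in CS 3 79.3%. Of 6025 genes tested, 0% passed (614 had an unadjusted P under 0.05) and 9.98% did not overlap.

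Levels were also set beside those of Sftpc. If Sftpb were present in a type only at the ratio it has to Sftpc in AT2 cells, club cells would hold 0.593, goblet cells 0.0836 and B cells 0.104. Measured levels were 18.3, 3.37 and 0.261. Measured over that level, the median of mice (those with Sftpc at 0 counted as highest) was 45.4 in club cells, 31.8 in peribronchial fibroblasts, 27.1 in NK and cytotoxic T cells and 2.98 in B cells. For Sftpa1 it was 28.2 in club cells and 37.6 in peribronchial fibroblasts. For Sftpd the levels at the AT2 ratio were 0.268 in club and 0.0357 in goblet cells, and those measured 6.96 and 3.86. Napsa, at 6.997 ± 0.905 in non-classical monocytes, 4.88 ± 2.51 in B cells and 4.86 ± 0.859 in classical monocytes, had levels at the AT2 ratio of 0.00325, 0.0244 and 0.0106. In AT1 cells Sftpa1 was at 0.498, and the level at the AT2 ratio was 0.569. Free RNA had been subtracted before, so the Sftpc left in a type need not set the free RNA of other genes. Lamp3, held almost wholly by AT2 cells, also had medians of 111 in peribronchial fibroblasts and 49.2 in classical monocytes, against 0.802 in AT1 cells. A level above the AT2 ratio thus does not show that a type makes the gene.

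**Figure D5:**
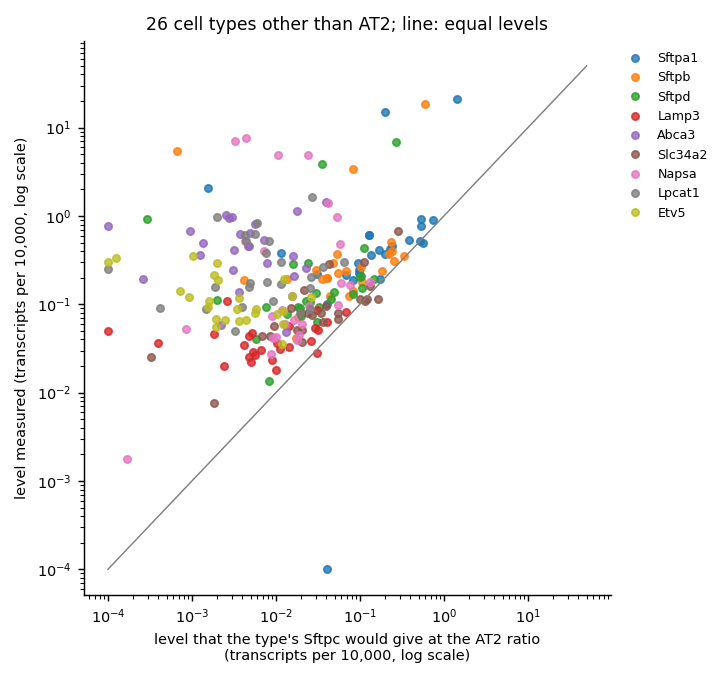
Measured level of 9 genes in 26 cell types other than AT2 (vertical, transcripts per 10,000) against the level that the type's Sftpc would give at the ratio of AT2 cells (horizontal), both on log scales with values under 0.0001 drawn there; the line marks equal levels. Sftpa1, Sftpb and Sftpd in club cells (21.2, 18.3 and 6.96) and Napsa in monocytes lie well above the line. Slc34a2 lies near it in AT1 cells (0.115 against 0.123) but above it in goblet cells (0.284 against 0.0427) and gCap cells (0.0756 against 0.027).

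Alveolar macrophages clear surfactant. Of 12 genes put on a list for that task and tested in them, 0 passed, against 0.53% of 7554 genes (40, and 72 with the lane as a block). The smallest P values were those of Car4 (8.84 ± 3.56 in CS and 4.66 ± 1.45 in RA), the scavenger receptor Marco (12.8 ± 5.32 and 6.82 ± 2.59), Trem2 (1.17 ± 0.289 and 0.665 ± 0.280) and the lipid exporter Abca1 (0.685 ± 0.573 and 1.26 ± 0.255), all with overlap, and 5.24% of genes did not overlap in this type. The 5 endothelial markers, of which Egfl7 was at 0, summed to 2.84 to 4.25 in the macrophages of CS mice and 0.890 to 2.838 in those of RA mice, without overlap. Car4 is also a gene of capillary endothelium, and its place on the list does not show a part in clearing surfactant. The part of these cells in the values was not tested.

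Last, the genes whose levels ran most like the mean of the 10 were sought over 23 cell types and 6917 genes. They were Pla2g1b, a phospholipase (Pearson r = 0.991), Gm20629 (0.986), the chloride transporter Slc26a9 (0.985), Gm43085 (0.985) and the chemokine Cxcl15 (0.984), at 1.07 to 70.2 in AT2 cells. Among the 10 themselves, Slc34a2 was closest to that mean (0.984) and Napsa farthest (0.674). Genes entered this search by their level in the type where they were highest. All of the named genes but Cxcl15 entered through AT2 cells alone, with at most 0.155 to 0.28 elsewhere. Any gene confined to AT2 cells would give a high r here, so neither the r values nor their order show more than that. These r values are over cell types, which share libraries, and serve as a description.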

How the data were processed

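Single-cell RNA was measured in 8 mouse lungs (4 CS, 4 RA). The authors aligned reads with STAR 2.7.3a and STARsolo (per the labels) to GRCm38.p6 with GENCODE M22, summed spliced and unspliced transcripts, dropped cells under 1000 transcripts or over 5% mitochondrial, removed free RNA with SoupX, named cell types and deposited one table. The values the authors deposited are estimated counts, UMI counts left after free RNA was removed and not scaled. Since 1.28% are whole, no count model was used. The largest mitochondrial share in the deposited cells was 7.33%.

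The 1025 cells the authors called multiplets and 7 cell cycle cells were left out, leaving 40074 of 41106. Counts were scaled to 10,000 per cell and averaged per mouse and type (at least 20 cells, at least 3 mice a group). For each type, limma 3.58.1 (R 4.3.3) tested log2(mean + 1), CS against RA, with a variance trend. P values were adjusted by Benjamini-Hochberg over the genes detected in at least 10% of the cells in CS or RA; fold changes on this scale understate changes of low genes. Differences between 2 types were fitted without a trend. The script was tested on simulated data. Single values were tested by exact permutation of 8 mice (70 assignments), which in basal cells took in mice with under 20 cells. Mice were paired by sequencing lane, which the labels give; the deviations of lane mates from their group means correlated over genes at r = -0.0984 to 0.0416 in AT2, -0.126 to 0.0891 in goblet, -0.167 to 0.297 in ciliated and -0.270 to 0.392 in gCap cells and -0.029 to 0.09 in alveolar macrophages. Nothing in the labels says that mice were processed apart, so P values measure the spread between these samples.

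Members and lists were chosen with earlier results of these data known. Genes named from a list are the 4 with the smallest P in AT2 cells (macrophage list: in alveolar macrophages). Gene positions were read from GENCODE M21 and promoters from RefSeq, both GRCm38. Alternatives were another pseudocount, other filters and scalings, lane as a block, labelled sex as a term, and leaving out cells or 1 mouse.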

Additional observations from a re-analysis of the deposited data

Results flagged for a closer look

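In groups of 4 mice, 5 of 66 groups looked at had 1 mouse far from the other mice, where chance would give about 3.3. In AT2 cells these were Sftpb in RA 3 (107.8, the nearest of the others being 118.9) and Lpcat1 in CS 2 (12.92, the nearest 11.18). In goblet cells they were Abca3 in CS 4 (0.9626), Napsa in CS 2 (0.1044) and Napsa in RA 2 (0.2755).

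Of 25 differences of the smoke effect between cell types, 4 gave an exact two-sided permutation P = 0.0286, the smallest that 8 mice allow. Sftpb differed by -0.2627 in AT2 minus club, by -1.056 in AT2 minus goblet and by 0.7933 in goblet minus club cells, and Etv5 by 0.2945 in AT2 minus goblet cells (limma adjusted P = 0.739, 0.0410, 0.463 and 0.512). The groups did not overlap in 3.41% of all genes for AT2 minus club, 4.91% for AT2 minus goblet and 3.73% for goblet minus club. The goblet comparisons were added after the goblet values had been seen, and 3 of the 4 rest on Sftpb in the same mice. Etv5 in goblet cells was at 0.0666, where log2(mean + 1) can hardly move. Its 0.2945 thus mostly repeats the AT2 difference of 0.2912, for which the groups overlapped, and cannot show a difference between the types.

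Cells outside the comparisons also held Sftpa1. Its mean was 3.995 transcripts per 10,000 in the 1025 cells named multiplets, 161 of which held at least 0.5 of a transcript, and 33.9 in the 7 cells named cell cycle, 6 of which did.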

How the results depend on the processing

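The replicate numbers pair no mice, and the mice were paired by sequencing lane, 1 CS and 1 RA mouse each. With the lane as a block, AT2 cells gave 0 genes. Among the member results in single cell types that were followed through the alternatives, the block lost the call of Lpcat1 in gCap cells and changed no other. The block was not fitted to the differences between cell types. In AT2 cells none of the 10 genes passed the test under any of the 17 alternatives. Sftpb in goblet cells stayed higher in CS under all 16 alternatives (log2 difference 0.78 to 1.14), and Lpcat1 in gCap cells under all 16 (0.13 to 0.33). Depth limits the low genes: levels of Lamp3 and Etv5 outside AT2 cells rest on few transcripts.

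Counts of genes that passed moved as follows. Labelled sex goes against Xist and Ddx3y in the 4 CS libraries, so a term for it does not model sex. With this term, AT2 cells gave 1 (0 before), goblet cells 10 (21) and alveolar macrophages 73 (40). With the lane as a block, ciliated cells gave 163 (513), alveolar macrophages 72 and gCap cells 0 (672). Without a filter on genes, club, goblet and gCap cells gave 0, ciliated cells 71, AT1 cells 29 (211) and alveolar macrophages 2. Goblet cells gave 35 with a pseudocount of 0.1, 39 with genes in 25% of cells and 42 with quantile scaling. Club cells without those holding Sftpc gave 15 (23), and gCap cells from summed counts 1249. AT2 minus club gave 0 with a pseudocount of 0.1, 2 with a trend over the mean level and 3 with a trend over the mean difference (1 before), and AT2 minus goblet gave 8 and 3 with these trends (5). When 1 mouse was left out, the counts ran from 98 to 205 in AT1, 8 to 81 in alveolar macrophages, 111 to 483 in ciliated, 1 to 21 in club, 0 to 657 in gCap and 0 to 47 in goblet cells, 0 to 1 for AT2 minus club and 0 to 14 for AT2 minus goblet.

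Members whose difference changed sign were all within 0.26 of 0 and did not pass the test. With quantile scaling Napsa in AT2 cells was 0.01197, from summed counts Sftpa1 in ciliated cells -0.01543, and without club cells holding Sftpc Napsa in club cells 0.01609. With a pseudocount of 0.1, AT2 minus club was -0.09129 for Lamp3, 0.2522 for Napsa and -0.07484 for Etv5. When 1 mouse was left out, these values crossed 0: Sftpc in AT2 cells ran from -0.1163 to 0.0128, Sftpd from -0.1221 to 0.03418 in AT2, -0.01603 to 0.1233 in club and -0.1622 to 0.03403 in goblet cells, and Abca3 in club cells from -0.01984 to 0.06462. For AT2 minus club, Sftpa1 ran from -0.1739 to 0.09488, Napsa from -0.09348 to 0.03754, Slc34a2 from -0.1342 to 0.05576 and Abca3 from -0.0458 to 0.1279, and for AT2 minus goblet Sftpd ran from -0.03323 to 0.1219. The cause was not tested in any case.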

Other observations

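The reporter itself was read in the AT2 cells. eGFP, switched on in cells that expressed Sftpc at the time of tamoxifen, was 60.6, 59.4, 76.2 and 73.9 transcripts per 10,000 in CS 1 to CS 4 and 63.3, 78.4, 82.7 and 75.3 in RA 1 to RA 4, with overlap. Few AT2 cells were low in Sftpc: those in which it made up under 1% of transcripts were 1.53% to 4.24% of AT2 cells in CS mice (2 to 7 cells) and 0.537% to 2.84% in RA mice (1 to 8 cells). AT2 cells with 2 or more endothelial transcripts ranged from 30.2% to 47.3% in CS mice and from 22.5% to 60.6% in RA mice.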
